A study of Mus musculus with 36 samples.

Results

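Medial entorhinal cortex (MEC) taken after exposure to a context was compared with MEC from mice left in the home cage, across all expressed genes. The members were the 3 context and 3 home cage libraries of MEC, 6 of the 36 libraries in the study, chosen by their tissue and treatment labels. Every mouse was wild type on the BL/6 background, was housed singly, and was accustomed to the handler on 5 days, for 3 minutes on each. Context mice were exposed to a context, fear mice were given a foot shock, and home cage mice were the untreated controls, and tissue was taken 90 minutes after the behaviour. The study covered 4 regions (CA1, CA3, lateral entorhinal cortex (LEC) and MEC) with 3 libraries in each of 12 groups of region and condition. Nothing in the labels says which libraries came from one mouse or from separate mice, so the p-values describe only how these libraries vary, which may be technical. In whole tissue, fewer cells of a type and less RNA per cell cannot be told apart.

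MEC sends spatial and self-motion signals to the hippocampus, and its layer II stellate cells and parvalbumin interneurons form a tightly coupled, fast-firing circuit. When neurons fire in a new place, calcium entry and MAP kinase signalling switch on immediate early genes such as Egr1 and Fos within minutes. Their products, and slower effector genes, act on synapses and excitability over the following hours.

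The 3 context libraries held 27878881, 27358942 and 32565213 counts, the 3 fear libraries 25530671 to 30354060, and the 3 home cage libraries 27433149, 29028061 and 68974340. The third home cage library was the deepest of the series, in which totals started at 21871412. Over the 9 MEC libraries Cbln4, a secreted synapse organiser, averaged 95.3 ± 14.8 CPM (counts scaled to library size; SD), against 14.9 ± 6.10 CPM in LEC, and the cortical neuron gene Tbr1 averaged 107 ± 10.7 CPM. Prox1, a marker of dentate granule cells, averaged 12.1 ± 1.97 CPM in MEC, against 115 ± 60.9 CPM in CA1. The second home cage library stood apart in choroid plexus markers, whose 5 tested members summed to 80.1 CPM there and to 9.67 to 13.9 CPM in the other 8 MEC libraries. The third home cage library held 96.0 CPM of hemoglobin and other blood markers, against 19.96 to 58.6 CPM in the other 8.

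After context exposure, 81 genes were higher and 12 lower than in home cage among 16314 tested, by edgeR's quasi-likelihood test at an adjusted p under 0.05. That is 0.497% of genes tested higher and 0.0736% lower, and 2506 genes had an unadjusted p under 0.05. The median change of the 81 was 0.62 on the log2 scale and that of the 12 was -0.71, against -0.02 over all genes tested. Of the 93, 8 changed by at least 2-fold: Egr2, Scn4b, Mybpc1, Fosb, Syt2, Egr1 and Homer1 were higher, and 1500015O10Rik was lower. In all 93 genes the 3 context values lay wholly above or wholly below the 3 home cage values, as they did in 10.8% (higher) and 8.7% (lower) of all genes.

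Same-numbered context and home cage libraries deviated together, and with the replicate number as a block the same comparison called 667 genes (4.09%), 475 higher (2.91%) and 192 lower (1.18%). All 93 genes were among them, and the median standard error of the 93 was 0.10 with the block and 0.11 without it. The pairing was read from these same data and is not in the labels. Fear libraries, which are also in this fit, were not checked for it. Below, 'without the block' means the main fit, and 'only with the block' means called in the block fit and not in the main fit. With no block, DESeq2 called 542 genes and the fit without the low-count filter 427. The count of 93 depended on the libraries included. It was 12, 19 and 15 without context library 1, 2 or 3, and 47 and 31 without fear library 2 or 3. It was 46, 32 and 356 without home cage library 1, 2 or 3. Without context library 1, 2 or 3 the median absolute log2 change of the 93 was 0.609, 0.661 and 0.615, against 0.625 in the full fit. Their median standard error was 0.125, 0.125 and 0.126, against 0.113. Ankrd33b, Cntn2, Egr1, Ier5, Kcna2, Luzp1, Mybpc1, Scn4b, Slc24a2 and Syt2 were called in each of the 9 fits that left out 1 library, and every other gene of the 93 lost the call in at least 1 of them.

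The 12 oligodendrocyte markers summed to 2698, 2552 and 2968 CPM in context libraries, against 2557, 1757 and 1713 CPM in home cage libraries. With these markers as a covariate 143 genes were called, 63 higher and 80 lower, and 32 of the 93 remained. The median absolute log2 change of the 93 was 0.672 with the covariate and 0.625 without it. Their median standard error was 0.145 with it and 0.113 without it. Among the genes described here, Egr1, Homer1, Syt2, Kcna2, Slc24a2, Grin2a, Kcnq3, Dcc, Tnr, Map1b, Ankrd33b, Luzp1, Cntn2, Rpl38, Gfap and Pisd-ps1 kept the call. Scn4b (adjusted p = 0.082), Mybpc1 (0.064), Ier5 (0.058), Fosb (0.072), Fos (0.13), Egr2 (0.21), Nefm (0.056), Nefh (0.20), Kcna1 (0.058), Hapln4 (0.17), Acan (0.17), Dusp4 (0.090), Chgb (0.11), Zbtb16 (0.12), Bhlhe40 (0.070), Rps28 (0.058) and Tyrobp (0.083) lost it, each in the same direction. So did Myrf, Erbb3, Plxnb3, Ank3, Ina, Prkca, Ppp3ca, Adora1, Pisd-ps2 and 1500015O10Rik. The part of oligodendrocyte content in those results was not tested further.

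**Figure D1:**
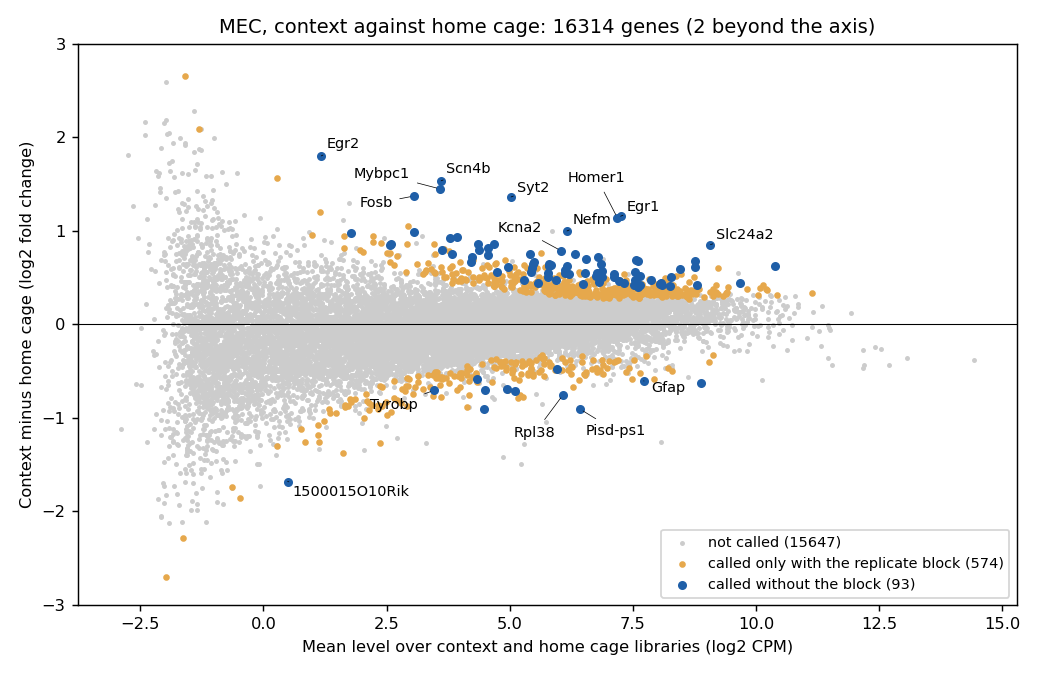
Each point is 1 of 16314 genes in MEC, with its mean level over the context and home cage libraries (log2 CPM) on the horizontal axis and the log2 fold change of context minus home cage on the vertical axis. The 93 genes called without the replicate block are blue, the 574 called only with it are orange, and 2 genes lie beyond the axis; most blue points lie above 0.

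The upstream sequences of 4 of the induced genes are shown because the genes moved together and are textbook targets of activity-dependent transcription. They are the 160 bases before a RefSeq transcription start on GRCm38.p6, each on the strand of its gene, for Egr2 (chr10:67537709-67537868, plus strand), Fosb (chr7:19310046-19310205, minus strand), Fos (chr12:85473730-85473889, plus strand) and Homer1 (chr13:93303597-93303756, plus strand). RefSeq gives 5 start windows for Egr2 and 2 for Homer1, and the one with the most motif matches is shown, so the matches in these had a part in its choice. The start shown lies 2394 bases (Egr2) and 4122 bases (Homer1) from the outermost start of the gene annotation. Capitals mark the cAMP response element core TGACG on either strand, the CArG box bound by serum response factor, and the EGR site GCGNGGGCG.
Egr2: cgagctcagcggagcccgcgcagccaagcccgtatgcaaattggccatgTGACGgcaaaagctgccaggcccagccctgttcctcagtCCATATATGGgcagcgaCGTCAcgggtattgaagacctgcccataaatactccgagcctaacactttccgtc
Fosb: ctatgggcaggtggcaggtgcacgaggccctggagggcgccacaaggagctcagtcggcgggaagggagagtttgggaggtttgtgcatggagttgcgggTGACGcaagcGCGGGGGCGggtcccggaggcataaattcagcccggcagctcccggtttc
Fos: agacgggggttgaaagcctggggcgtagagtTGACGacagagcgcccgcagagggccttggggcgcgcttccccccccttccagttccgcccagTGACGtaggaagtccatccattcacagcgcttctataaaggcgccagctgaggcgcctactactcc
Homer1: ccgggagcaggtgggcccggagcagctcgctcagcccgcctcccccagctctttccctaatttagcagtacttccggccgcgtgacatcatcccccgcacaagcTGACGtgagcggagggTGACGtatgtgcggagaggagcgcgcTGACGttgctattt

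Counted in bases from the start, Egr2 held a TGACG core at -111 and -55 and a CArG box at -72. Fosb held a core at -60 and an EGR site at -50, Fos a core at -129 and -66, and Homer1 a core at -56, -40 and -14. Both strands were searched in windows of 250 bases before to 50 after each RefSeq start, of which 82 belonged to 60 of the 81 higher genes. The TGACG core was in 25 of the 82 windows (30.5%), against 20.8% of all 32851 windows, and it also lies within the complete element TGACGTCA, which was in 1 (1.22%) against 1.79%. The CArG box was in 5 (6.1%), all of Dgkh and Egr2, against 1.63%, the EGR site in 10 (12.2%) against 5.55%, and the AP-1 site TGANTCA in 3 (3.66%) against 7.81%. These are matches of letters. The 32851 windows were not limited to the genes tested in MEC, and several windows of 1 gene were counted separately. The Scn4b window held no match to any of the 5 motifs.

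Among immediate early transcription factors, 5 of 26 rose and none fell, and 9 rose with the block. Of all genes tested, 0.497% were called higher without the block and 2.91% with it. The list's median was 0.23 on the log2 scale, with 19 members above 0, against -0.02 over all genes, and its count was 2, 3 and 3 without context library 1, 2 or 3, and 1 (Egr1) with the oligodendrocyte covariate. Egr1 (ENSMUSG00000038418, GRCm38 chr18:34859823-34864984), a zinc-finger factor induced by neuronal firing, had 233, 214 and 238 CPM in context libraries, against 111, 93.8 and 102 CPM in home cage libraries. Its groups were far apart, with a log2 change of 1.16 ± 0.12 (SE; adjusted p = 0.00134). Fosb, an AP-1 subunit whose splice form accumulates with repeated activity, had 13.8, 13.3 and 12.7 CPM in context libraries, against 6.34, 4.16 and 4.93 CPM in home cage libraries. The context values were close together and clear of the home cage values, and the log2 change was 1.37 ± 0.20 (adjusted p = 0.00824).

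Fos, the founding AP-1 subunit, had 20.4, 22.9 and 20.03 CPM in context libraries, against 13.2, 11.1 and 9.01 CPM in home cage libraries. That was a log2 change of 0.94 ± 0.16 (adjusted p = 0.0251). Egr2, a relative of Egr1, was scarcer, at 3.25, 4.26 and 4.98 CPM in context libraries, against 1.21, 1.77 and 0.736 CPM in home cage libraries, and had the largest rise of the 81 (log2 change 1.80 ± 0.34, adjusted p = 0.036). Ier5, an immediate early regulator of transcription, had 33.5, 34.4 and 36.3 CPM after context, against 20.4, 18.05 and 19.0 CPM in home cage (log2 change 0.86 ± 0.12). Fos and Egr2 lost the call without any 1 of the 3 context libraries, Fos also without home cage library 2, Egr2 also without fear library 3 or home cage library 1, and Fosb without context library 1.

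Other members of the list were called only with the block: Nr4a3 (log2 change 0.61 ± 0.15 without the block; adjusted p = 0.00402 with it), Egr3 (0.81 ± 0.23; 0.0386), Egr4 (0.82 ± 0.24; 0.0364) and Fosl2 (0.43 ± 0.11; 0.0234). With no block, DESeq2 called 9 of the list and the fit without the filter 7. The following 3 were picked out after their values were seen. Npas4, a neuron-specific factor induced by calcium, had 21.2, 16.8 and 20.2 CPM in context libraries and 18.9, 9.92 and 21.1 CPM in home cage libraries. Nr4a1, an orphan nuclear receptor, had 39.5, 57.5 and 50.9 CPM after context and 44.3, 45.8 and 58.5 CPM in home cage, and Junb, an AP-1 partner of Fos, had a log2 change of -0.14 ± 0.34. The groups overlapped for each of these, and none was called with or without the block.

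Among activity-regulated effectors, 3 of 30 rose (Homer1, Kcna1 and Nefm), 8 rose with the block, and none fell. The shares of all genes called higher were 0.497% without the block and 2.91% with it. Kcna1, an axonal channel, and Nefm, a neurofilament subunit, are also counted in the fast-firing list. Kcna1 is counted again among potassium channels and Nefm among cytoskeleton genes. The lists were chosen with earlier results of these data known. The list's median was 0.26, and its count was 0 without context library 1, 7 without home cage library 3, 7 with the GC and length offsets and 1 (Homer1) with the oligodendrocyte covariate. Homer1, a postsynaptic scaffold with a short activity-induced form that gene counts do not separate, had 236, 236 and 180 CPM in context libraries, against 103, 104 and 88.1 CPM in home cage libraries. Every context value was above every home cage value, with a log2 change of 1.14 ± 0.16 (adjusted p = 0.00824, and 0.051 without context library 1). Bdnf, the brain-derived neurotrophic factor, had 35.7, 30.6 and 31.0 CPM after context, against 23.0, 19.9 and 19.5 CPM in home cage. Its groups were separate too, but its log2 change of 0.64 ± 0.14 passed only with the block (adjusted p = 0.0557 without and 0.0159 with it). Pcsk1, a prohormone convertase, Nptx1, a synaptic pentraxin, and the receptor Gpr3 also passed only with the block, at log2 changes of 0.53, 0.46 and 0.79.

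Arc, the synaptic capsid-like protein that is a standard reporter of memory-related firing, was picked out after its values were seen. It had 42.6, 69.7 and 59.1 CPM in context libraries and 43.1, 32.3 and 38.8 CPM in home cage libraries. The first context library lay inside the home cage range, and the log2 change of 0.59 ± 0.22 was not called (adjusted p = 0.228, and 0.256 with the block). Nptx2, a pentraxin released with activity, differed by 0.88 ± 0.33 and Ptgs2, the inducible cyclooxygenase, by 1.30 ± 0.45, and neither was called with or without the block. Of 16 MAP kinase phosphatases and feedback inhibitors, which shut off the pathway that drives these genes, 1 rose and 6 rose with the block, with a median of 0.33. Over all genes, the shares called higher were 0.497% and 2.91% with the block. Dusp4, a nuclear MAP kinase phosphatase, had 12.8, 12.03 and 10.5 CPM after context, against 5.13, 5.33 and 7.16 CPM in home cage (log2 change 0.99 ± 0.18, adjusted p = 0.0309). With the block Dusp6, which removes phosphate from ERK, was also called at 0.54 ± 0.10. Dusp4 lost the call without any 1 of the context libraries, fear library 3, or home cage library 1 or 2.

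**Figure D2:**
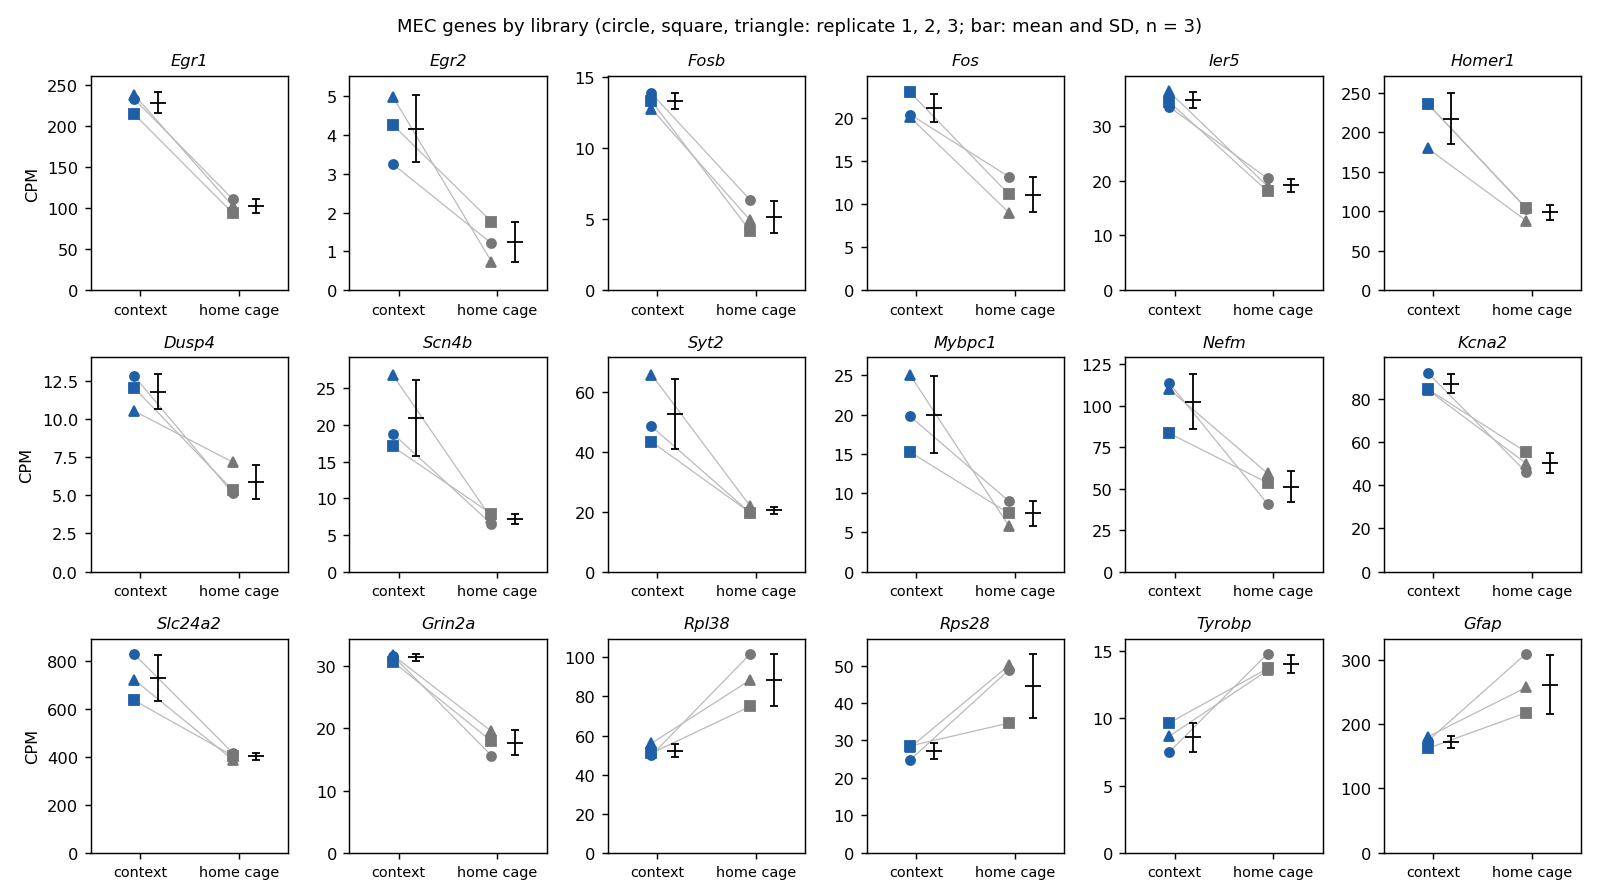
Levels (CPM, vertical axes from 0) of 18 genes in the 3 context and 3 home cage libraries of MEC. Circles, squares and triangles are replicates 1, 2 and 3, lines join the same number, and bars are the mean and SD (n = 3); in every panel the context values lie wholly above or, for Rpl38, Rps28, Tyrobp and Gfap, wholly below the home cage values.

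Of the genes of fast-firing neurons and parvalbumin cells, 8 of 24 rose (16 with the block), none fell, and all 24 log2 changes were above 0, with a median of 0.44. Against this stand 0.497% of all genes called higher (2.91% with the block) and a median of -0.02. The list was chosen with earlier results of these data known, so this comparison is not an independent test. Summed over the list, context libraries held 2778 to 3227 CPM, against 2195 to 2389 CPM in home cage libraries. Scn4b (GRCm38 chr9:45138395-45154152), the sodium channel beta-4 subunit behind resurgent current in fast-spiking cells, had 18.8, 17.1 and 26.8 CPM in context libraries, against 6.49, 7.86 and 7.26 CPM in home cage libraries. The third context library was the highest, the groups did not overlap, and the log2 change was 1.54 ± 0.21 (adjusted p = 0.00824). Syt2, the fast calcium sensor of release at parvalbumin-cell terminals, had 48.7, 43.5 and 66.0 CPM after context, against 19.7, 19.7 and 22.0 CPM in home cage. Again the third context library was the highest, and the log2 change was 1.36 ± 0.15 (adjusted p = 0.00341).

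Mybpc1, a myosin-binding protein named for muscle, had 19.8, 15.2 and 25.04 CPM in context libraries, against 8.99, 7.43 and 5.83 CPM in home cage libraries (log2 change 1.45 ± 0.20). Of the neurofilament subunits, which set axon calibre, Nefm and Nefh rose, and Nefl passed only with the block (0.43 ± 0.09; adjusted p = 0.0140). Nefm had 114, 83.4 and 110 CPM after context, against 40.7, 53.5 and 59.2 CPM in home cage, a log2 change of 1.00 ± 0.15. Of the exons of Nefm, 19.2% overlap Nefl on the other strand, and the strand setting of the counting is not given in the sources used here. Nefh had 53.8, 48.9 and 63.4 CPM after context, against 30.9, 30.5 and 37.3 CPM in home cage (0.75 ± 0.15). Kcna1 and Kcna2, the Kv1 channels that cluster beside nodes and at axon initial segments, rose by 0.69 ± 0.10 and 0.79 ± 0.10. Kcna2 had 92.2, 84.6 and 84.3 CPM in context libraries, against 46.0, 55.3 and 50.1 CPM in home cage libraries. Hapln4, a link protein of the perineuronal net, rose by 0.62 ± 0.12, and 2 further net proteins outside the list were called, Acan (aggrecan) at 0.98 ± 0.20 and Tnr (tenascin R) at 0.62 ± 0.13. Nefm lost the call without context library 1 or 3, Kcna1 without context library 1, and Nefh, Acan and Tnr without any 1 of the context libraries, fear library 2 or 3, or home cage library 1 or 2, Tnr also without fear library 1. Hapln4 lost it without context library 1 or 3, fear library 2, or home cage library 1 or 2.

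Called only with the block were Vamp1, the vesicle SNARE of fast synapses (log2 change 0.54 ± 0.12, adjusted p = 0.00801 with the block), Kcnc1, the Kv3.1 channel (0.44 ± 0.09; 0.00721), Scn8a, the Nav1.6 channel (0.45 ± 0.10; 0.0145), and 5 others. With no block, DESeq2 called 13 of the fast-firing list and the fit without the filter 14. Pvalb itself, picked out after its values were seen, had 23.6, 22.9 and 31.1 CPM in context libraries and 27.5, 13.5 and 17.3 CPM in home cage libraries. The first home cage library lay inside the context range, and the log2 change of 0.42 ± 0.24 was not called with or without the block. Of 10 interneuron markers, none was called without the block; with it Gad1, the enzyme that makes GABA, was higher at 0.38 ± 0.08 and Sst, the somatostatin precursor, lower at -0.39 ± 0.10. The 10 summed to 988, 868 and 991 CPM after context, against 777, 807 and 805 CPM in home cage. The part of interneuron content in the values of the fast-firing list was not tested. The list's count was 4 without context library 1, 5 without context library 3, and 2 with a covariate for oligodendrocyte markers.

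Among ion channels, 3 of 46 potassium and HCN channels rose (Kcna1, Kcna2 and Kcnq3; 14 with the block), none fell, and 43 had a log2 change above 0 (median 0.23). Beside these counts and those of sodium and calcium channels below stand 0.497% of all genes called higher, and 2.91% with the block. Kcna1 and Kcna2 are also counted in the fast-firing list. With no block, DESeq2 and the fit without the filter each called 11 of the 46. The potassium and HCN channel count was 1 without context library 1 and 6 without home cage library 3. Kcnq3, a subunit of the M-current that damps repetitive firing, had 57.3, 56.1 and 53.3 CPM in context libraries, against 32.2, 39.4 and 35.1 CPM in home cage libraries (0.64 ± 0.12, adjusted p = 0.0353, lost without any 1 of the context libraries, fear library 2 or 3, or home cage library 1 or 2). Kcnj6, a G-protein-gated inward rectifier, and Kcns2, a silent modifier of Kv2 channels, passed only with the block, at 0.68 ± 0.16 and 0.52 ± 0.11. Of 23 sodium and calcium channel genes only Scn4b was called without the block and 8 with it, among them Cacna2d3, an auxiliary calcium channel subunit (0.53 ± 0.12 with the block). Slc24a2, a potassium-dependent sodium-calcium exchanger of neurons that is in none of the lists, had 828, 635 and 721 CPM after context, against 416, 404 and 388 CPM in home cage. The lowest context value was well above the highest home cage value, and the log2 change was 0.85 ± 0.11 (adjusted p = 0.00565).

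In the next lists, counts of members called stand against 0.497% of all genes called higher without the block and 2.91% with it. Of 27 glutamate receptor genes 1 rose (2 with the block; median 0.18), and of 14 GABA receptor genes none was called without the block and 2 with it (median 0.17). The glutamate receptor was Grin2a, an NMDA receptor subunit that becomes prominent as synapses mature, with 31.7, 30.7 and 31.8 CPM in context libraries, against 15.6, 17.9 and 19.5 CPM in home cage libraries. Its context values were close together, its log2 change was 0.82 ± 0.13 (adjusted p = 0.0127), and it lost the call without any 1 of the 3 context libraries (adjusted p 0.053 to 0.058). With the block Cacng2, the AMPA receptor partner stargazin, was called at 0.49 ± 0.08 and Gabrb2, a GABA-A receptor beta subunit, at 0.43 ± 0.08. Adora1, the inhibitory adenosine receptor, and Ppp3ca, the catalytic subunit of calcineurin, were among the 81 genes at 0.40 ± 0.08 and 0.44 ± 0.08. Adora1 lost the call without any library but home cage 3. Ppp3ca lost it without any 1 of the context libraries, fear library 2 or 3, or home cage library 1 or 2. Of the exons of Adora1, 20.1% overlap Mybph on the other strand.

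Of 27 genes of neurofilaments and the axonal cytoskeleton, 5 rose (10 with the block) and none fell, with a median of 0.25. Beside Nefm and Nefh these were Map1b, a microtubule-associated protein (1641, 1595 and 1790 CPM in context libraries, against 927, 1186 and 1145 CPM in home cage libraries), Ank3, the ankyrin that builds the axon initial segment (0.44 ± 0.08), and Ina, alpha-internexin (0.42 ± 0.09). The count was 0 without context library 1 or 3, 1 without context library 2, 2 without fear library 2, 1 without fear library 3 or home cage library 1 or 2, 10 without home cage library 3, and 2 with the oligodendrocyte covariate. Of 40 genes of vesicle release 1 rose, Syt2, and 7 with the block. Of 29 postsynaptic scaffolds and kinases 2 rose, Homer1 and Prkca, the protein kinase C alpha (0.52 ± 0.11), and 4 with the block. Prkca lost the call without any library but home cage 3 and with the GC and length offsets (adjusted p = 0.085), and Homer1 without context library 1.

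The series title names Cbln4 and Neo1. Cbln4 had 120, 80.7 and 90.3 CPM in context libraries and 87.9, 80.8 and 99.4 CPM in home cage libraries. The groups overlapped, and the log2 change of 0.11 ± 0.16 was not called (adjusted p = 0.776). Neo1, which encodes the receptor neogenin, had 161, 157 and 142 CPM after context and 123, 145 and 129 CPM in home cage, with a log2 change of 0.21 ± 0.10 (adjusted p = 0.313). Of 23 genes of cerebellins, neogenin and their partners 1 rose, Dcc, the netrin receptor and closest relative of neogenin. Dcc had 35.3, 28.3 and 29.0 CPM in context libraries, against 15.1, 18.7 and 21.4 CPM in home cage libraries, a log2 change of 0.74 ± 0.15 (adjusted p = 0.0476). It lost the call without any library but home cage 3 and with offsets for GC content and transcript length (adjusted p = 0.057). With the block Nrxn3, a presynaptic neurexin that binds cerebellins, was also called at 0.48 ± 0.09. Of 26 neuropeptides and granins 1 rose, Chgb, a granin of dense-core vesicles, at 0.68 ± 0.11 (lost without context library 1 or 3 or home cage library 1 or 2), and the list's median was -0.03.

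The same shares of all genes, 0.497% without the block and 2.91% with it, stand beside the hormone and clock lists. Of 20 tested glucocorticoid-responsive genes 1 rose (5 with the block; median 0.21). This was Zbtb16, a zinc-finger repressor induced by glucocorticoids, with 73.0, 59.0 and 67.5 CPM in context libraries, against 47.0, 42.7 and 46.8 CPM in home cage libraries (0.55 ± 0.10, adjusted p = 0.0349). It lost the call without any 1 of the context libraries, fear library 2 or 3, or home cage library 1 or 2. Hif3a, Klf9, Cdkn1a and Tsc22d3 passed with the block only, at 0.84 ± 0.13, 0.47 ± 0.09, 1.09 ± 0.21 and 0.45 ± 0.11. Sgk1, a kinase gene induced by glucocorticoids and picked out after its values were seen, had 63.5, 35.3 and 29.7 CPM after context, against 26.6, 27.4 and 26.4 CPM in home cage. Its first context library was far above the other 2, and it was not called with or without the block. Of 19 clock genes 1 rose (3 with the block), Bhlhe40, a basic helix-loop-helix repressor also induced by activity, with 104, 101.4 and 109 CPM after context, against 56.3, 63.2 and 67.4 CPM in home cage. Its log2 change was 0.75 ± 0.12 (adjusted p = 0.0133, and 0.053 to 0.059 without any 1 of the context libraries or home cage library 2). Of 31 chaperones and of 37 chromatin regulators none was called without the block and 5 each with it, and of 20 cholesterol synthesis genes none with or without it.

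**Figure D3:**
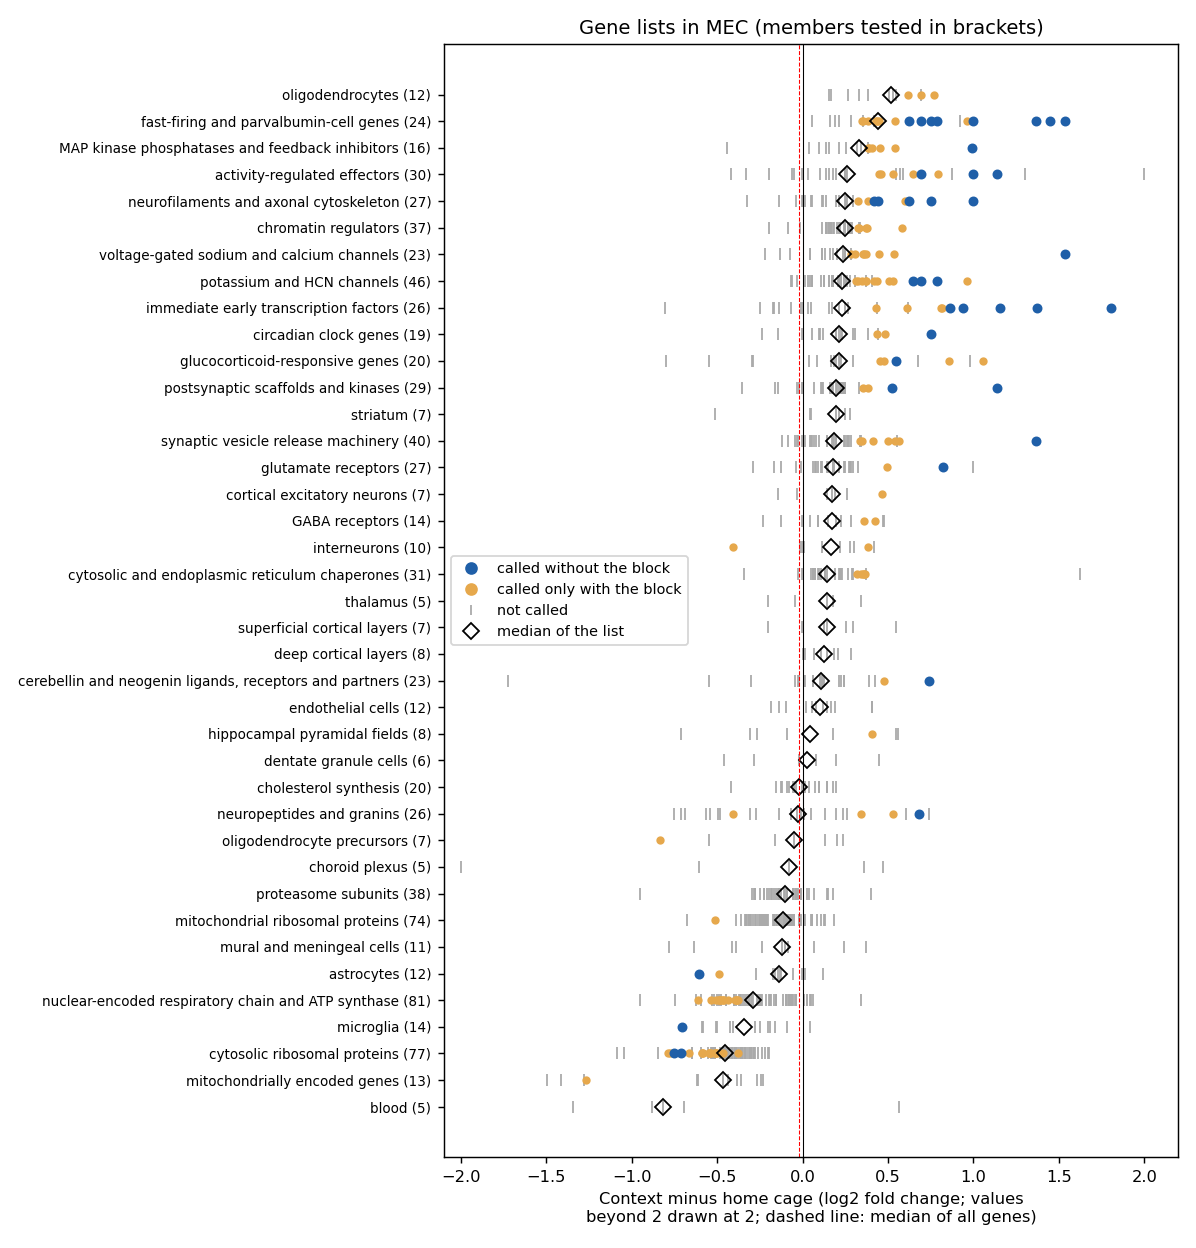
Log2 fold changes of context minus home cage for each tested member (ticks and circles) of the gene lists with at least 5 tested members, with the list medians as diamonds and the median of all genes (-0.02) as a dashed line; values beyond 2 are drawn at 2. Members called without the block are blue and those called only with it orange; the fast-firing list has 8 blue points, and every tested member of the cytosolic ribosomal list lies below 0.

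Glial genes moved in both directions. Counts of glial markers here and in the next paragraph stand against 0.497% of all genes called higher and 0.0736% lower. With the block these shares were 2.91% and 1.18%. All 12 oligodendrocyte markers had log2 changes above 0 (median 0.52), but none was called without the block and 3 were with it, among them Mag, the myelin-associated glycoprotein (57.3, 57.9 and 80.3 CPM in context libraries, against 41.1, 33.1 and 40.6 CPM in home cage libraries). In their summed level the first home cage library was level with the context libraries, and without it the median was 0.81 and 6 markers were called. Genes of the lineage outside the marker list were called without the block: Myrf, the transcription factor that drives myelin genes, had 23.9, 26.0 and 32.6 CPM after context, against 16.4, 13.5 and 15.8 CPM in home cage (0.86 ± 0.15). Erbb3, a neuregulin receptor, and Plxnb3, a semaphorin receptor of oligodendrocytes, rose by 0.85 ± 0.18 and 0.80 ± 0.14. Myrf lost the call without any 1 of the context libraries or home cage library 2. Erbb3 lost it without any library but home cage 1 and 3, and Plxnb3 without context library 2 or 3, fear library 2 or 3, or home cage library 1 or 2.

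Of 12 astrocyte markers 1 fell, Gfap, the intermediate filament of astrocytes, with 174, 162 and 180 CPM in context libraries, against 310, 218 and 257 CPM in home cage libraries (-0.60 ± 0.12, adjusted p = 0.036). The summed astrocyte list did not separate the groups, at 6233 to 6833 CPM after context and 5932 to 7243 CPM in home cage. Of 14 microglia markers 1 fell, Tyrobp, the adaptor of microglial receptors, with 7.48, 9.65 and 8.66 CPM after context, against 14.8, 13.7 and 13.6 CPM in home cage (-0.71 ± 0.14, adjusted p = 0.0459). The 14 summed to 415, 428 and 431 CPM after context, against 514, 424 and 526 CPM in home cage, so the second home cage library was level with the context libraries. With offsets for GC content and length neither Gfap (adjusted p = 0.076) nor Tyrobp (0.078) was called, Tyrobp lost the call without any library but home cage 3, and Gfap without any 1 of the context libraries, fear library 2 or 3, or home cage library 1. Of 12 endothelial, 11 mural and meningeal, 5 tested choroid plexus and 5 blood markers none was called. Of the 12 genes called lower, 1500015O10Rik had the largest fall and was scarce, at 1.06, 0.55 and 0.68 CPM after context, against 2.90, 2.76 and 1.77 CPM in home cage. It lost the call without any library but home cage 3.

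Of 77 tested cytosolic ribosomal protein genes 2 fell, Rpl38 and Rps28, and 19 fell with the block. Of all genes tested, 0.0736% were called lower without the block and 1.18% with it. All 77 log2 changes were below 0, with a median of -0.46 against -0.02 over all genes. The count of 2 was 0 without any 1 of the context libraries, fear library 3 or home cage library 1, 4 without home cage library 2, and 17 without home cage library 3. Rpl38, a large-subunit protein, had 49.8, 50.99 and 56.1 CPM in context libraries, against 102, 74.9 and 88.4 CPM in home cage libraries, a log2 change of -0.76 ± 0.14 (adjusted p = 0.0349). Summed, the genes held 8416 to 9800 CPM after context, against 10295 to 14013 CPM in home cage. The groups did not overlap, and the first home cage library was the highest. With the oligodendrocyte covariate the ribosomal count was 28 and the median -0.70. Of the 81 nuclear genes of the respiratory chain none was called without the block and 14 were lower with it (median -0.29). With the block 1.18% of all genes were called lower. The 13 mitochondrially encoded genes summed to 53252, 50311 and 40043 CPM after context, against 83020, 51436 and 50864 CPM in home cage. Their median was -0.47, and it was -0.16 without home cage library 1, which stood alone.

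The median longest transcript was 6904 bases in the genes called higher and 1343 bases in those called lower, against 3258 bases over all tested genes with a known length. In 4 bins of equal size from short to long, the median log2 change was -0.18, -0.06, 0.01 and 0.11, and 0, 7, 14 and 59 genes were called higher and 8, 2, 1 and 1 lower. The median level of the shortest bin minus that of the longest, after centring each gene, was -0.19, -0.17 and -0.06 in context libraries, against 0.21, 0.05 and 0.18 in home cage libraries, without overlap. With offsets for length and GC content, 77 of the 93 genes were still called, Rpl38 (-0.47, adjusted p = 0.10) and Rps28 (-0.56, 0.054) were not, and the median was -0.28 for ribosomal, -0.07 for respiratory chain and -0.15 for mitochondrially encoded genes. The offsets moved medians of higher lists as well, to 0.13 for the axonal cytoskeleton, 0.14 for sodium and calcium channels, 0.09 for glutamate receptors, 0.11 for GABA receptors, 0.08 for postsynaptic scaffolds, 0.09 for chromatin regulators and 0.06 for cerebellins and partners, while that of the fast-firing list was 0.44 with and without them. The median of neuropeptides and granins was 0.10 with the offsets, opposite in sign to its value without them. Pisd-ps1 and Pisd-ps2 fell by 0.91 each but are near-identical copies that may share reads, so each value is uncertain.

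**Figure D4:**
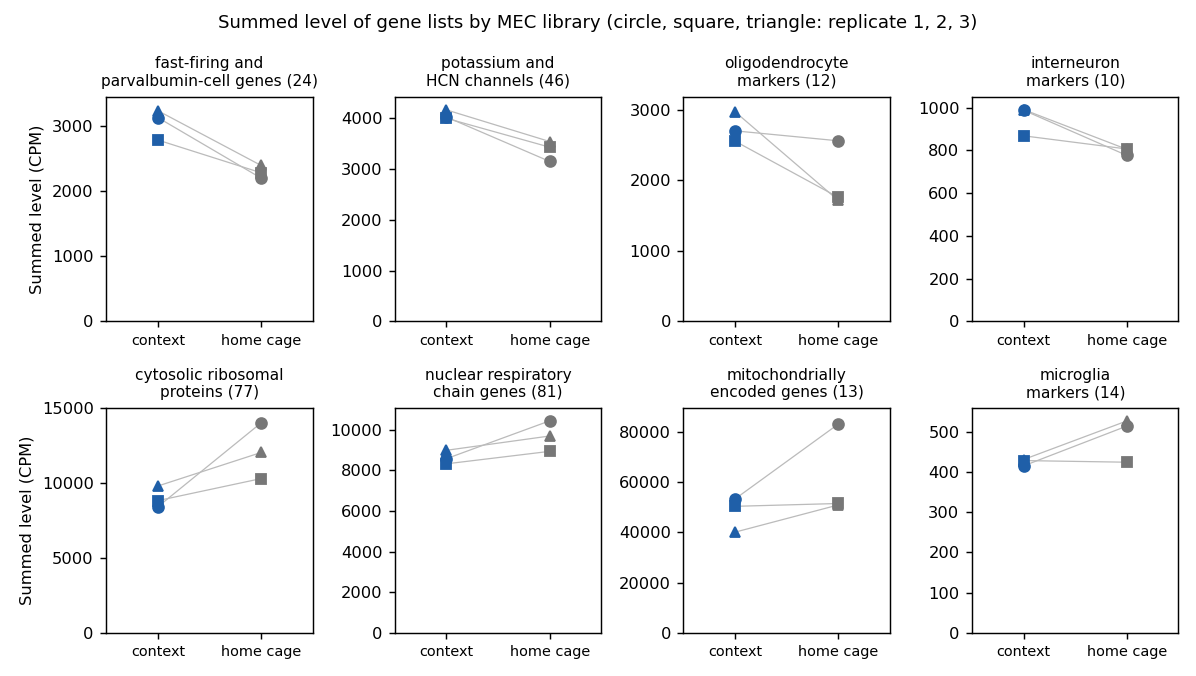
Summed level (CPM, vertical axes from 0) of 8 gene lists in the 3 context and 3 home cage libraries of MEC, with the number of tested members in brackets; circles, squares and triangles are replicates 1, 2 and 3 and lines join the same number. The fast-firing list separates the groups (2778 to 3227 CPM after context, 2195 to 2389 CPM in home cage), and home cage library 1 stands alone in the mitochondrially encoded genes at 83020 CPM.

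Fear libraries were compared with the same 3 home cage libraries, so the 2 comparisons share their controls and are given side by side; fear against home cage called 1559 genes (9.56%), 926 higher (5.68%) and 633 lower (3.88%). Scn4b had 18.8, 17.1 and 26.8 CPM after context, 32.1, 48.3 and 55.5 CPM after fear, and 6.49, 7.86 and 7.26 CPM in home cage, that is 1.54 ± 0.21 for context and 2.65 ± 0.21 for fear. The 3 conditions did not overlap. Syt2 had 48.7, 43.5 and 66.0 CPM after context, 70.7, 71.1 and 93.3 CPM after fear, and 19.7, 19.7 and 22.0 CPM in home cage. Arc, not called after context, had 76.7, 142 and 88.7 CPM after fear and was called there against home cage (1.43, adjusted p = 0.00351). Homer1 and Egr1 had log2 changes of 1.14 and 1.16 for context and of 1.02 and 1.39 for fear.

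The difference itself, fear minus context, was tested in the same fit: 0 genes were called by edgeR's quasi-likelihood test, with 2395 at an unadjusted p under 0.05, and 49 were called by DESeq2 and 784 (4.81%) by edgeR with the block, 488 higher (2.99%) and 296 lower (1.81%). Whether fear libraries pair with context libraries by number was not checked, so the block count rests on an assumption. Of the 93 genes, 26 were higher after fear and 0 lower at an unadjusted p under 0.05, and 12 were called with the block. The 93 were selected on the same context libraries that enter this difference. Scn4b differed by 1.12 ± 0.20 (unadjusted p = 8.59e-05, adjusted p = 0.234) and Syt2 by 0.57 ± 0.15 (adjusted p = 0.312).

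**Figure D5:**
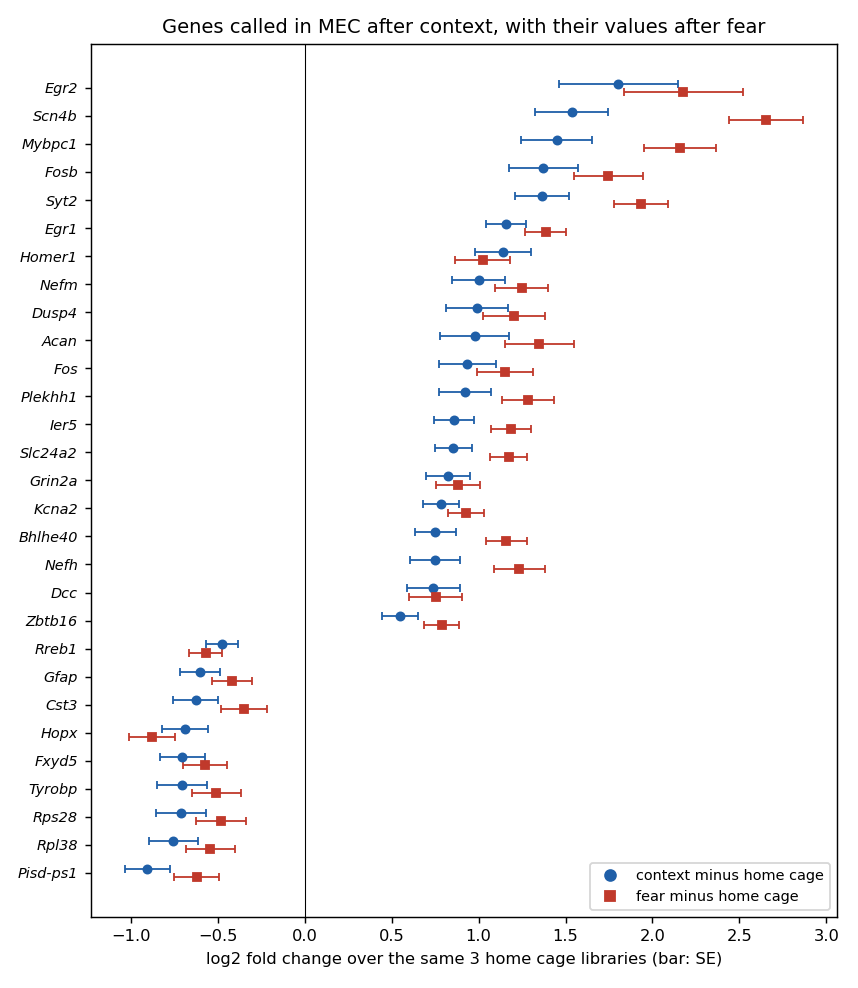
Log2 fold changes with SE of context minus home cage (blue circles) and fear minus home cage (red squares), over the same 3 home cage libraries, for genes called after context in MEC. Scn4b lies at 1.54 for context and 2.65 for fear, and Homer1 at 1.14 and 1.02.

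The context response of MEC was set against that of the other 3 regions in a fit of all 36 libraries, in which 17875 genes were tested. No gene differed at an adjusted p under 0.05 between MEC and LEC (0% of genes; 384 at an unadjusted p under 0.05), CA1 (0%; 1037) or CA3 (0%; 3330). The CA1 count was 1 and 28 without CA1 context library 1 or 3, and the CA3 count was 2011 and 3 without CA3 context library 1 or CA3 home cage library 1. In that fit Egr1 had log2 changes of context minus home cage of 1.18 ± 0.27 in MEC, 1.13 ± 0.27 in LEC, 1.66 ± 0.28 in CA1 and 0.37 ± 0.27 in CA3. Scn4b had 1.56 ± 0.27 in MEC, 0.28 ± 0.28 in LEC, 0.73 ± 0.25 in CA1 and 0.33 ± 0.26 in CA3. Syt2 had 1.39 ± 0.42 in MEC and -0.05 ± 0.45 in LEC, a difference of 1.44 ± 0.61, which was not called. By smallest p for MEC minus LEC, Kctd14 ranked 1 and Vamp1 ranked 3, with differences of opposite sign. Kctd14, a scarce gene, had log2 changes of -1.23 in MEC and 0.65 in LEC, a difference of -1.88 ± 0.41 that was not called. Vamp1 averaged 102 ± 12.3 CPM after context and 68.9 ± 0.19 CPM in home cage in MEC. In LEC it averaged 57.0 ± 1.87 CPM after context and 60.9 ± 5.82 CPM in home cage, on the scale of that fit (SD, n = 3 each). That difference of 0.66 ± 0.17 did not pass adjustment either (adjusted p = 1.00). Of the 93 genes, 17, 12 and 16 differed from LEC, CA1 and CA3 at an unadjusted p under 0.05, against 384, 1037 and 3330 of all 17875 genes. The 93 were selected on the same MEC libraries, so these counts are no separate evidence of a region difference. The 36-library fit pools the spread of all regions, and in it Scn4b alone was called for context against home cage in MEC.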

How the data were processed

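PolyA RNA was extracted with TRIzol and made into libraries with the Illumina TruSeq Stranded mRNA kit, per the labels' protocols. The values the authors deposited are whole-number read counts per gene, without normalization. Reads were processed with Trimmomatic 0.33, STAR 2.7.10b and HTSeq 2.0.1 on mm10, per the submitters' processing notes. Neither annotation release nor strand setting is given in the sources used here, which leaves overlapping genes and near-identical copies uncertain. All 37315 lines of the table named a gene, and its columns equalled the 36 single-sample files. Symbols, lengths and GC content came from a GENCODE annotation of GRCm38, promoter sequences from RefSeq on GRCm38.p6.

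The 9 MEC libraries were filtered with filterByExpr, scaled with TMM and tested with the robust quasi-likelihood test of edgeR 4.0.16 (R 4.3.3, limma 3.58.1), with 6 residual degrees of freedom. A call required an adjusted p (Benjamini-Hochberg, 16314 genes) under 0.05. Log2 fold changes carry standard errors, CPM are TMM-scaled, and regions were compared by interaction terms in all 36 libraries (24 residual degrees of freedom). The biological coefficient of variation was 0.143, and replicates differed beyond sampling noise (chi-square per degree of freedom 9.84 to 83.8). Deviations of same-numbered context and home cage libraries correlated at 0.639, 0.342 and 0.788 over the 8373 genes averaging 4 log2 CPM or more. Differently numbered libraries correlated at -0.70 to 0.22. Deviations from a group's mean are tied to each other, so these correlations are not independent. The labels state no pairing, and fear libraries were not checked in this way. The numbers were taken to pair the libraries, and the fit with the number as a block (4 residual degrees of freedom) is printed where it changes a call.

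Members and 41 gene lists were chosen with earlier results of these data known. Genes named were the 12 largest called changes in each direction (at least 1 log2 CPM, no overlap), every called member and the 3 smallest p of each list, Cbln4 and Neo1, the 6 smallest p for MEC minus LEC, and the 8 smallest p in each direction with the block. The text prints a part of them. Other called genes, and list members named as called only with the block beyond these, were chosen after their values were seen. Alternatives were RLE scaling, no filter, the block, offsets for GC content and length (splines of 5 degrees of freedom), other sets of libraries, an oligodendrocyte covariate, DESeq2 1.42.0, and leaving out each library.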

Additional observations from a re-analysis of the deposited data

How the results depend on the processing

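The 93 genes called for context against home cage became 92 with RLE scaling, 427 without the filter (309 higher, 118 lower), 542 with DESeq2 (385 higher, 157 lower), 667 with the replicate block, 317 with GC and length offsets, 529 with the replicate block and these offsets, 143 with the oligodendrocyte covariate, 19 from the 6 context and home cage libraries only, and 1 (Scn4b) from 36 libraries. The block on the 6 libraries only, chosen after seeing the data, called 2049. Leaving out 1 library gave 12 to 356. None of the 93 changed direction under any of these. Of them, 21 passed in at least 6 of the 9 fits that left out a library, and all 93 were called with the block, without the filter and by DESeq2. The cause of these shifts in count was not tested. Region differences gave 0 calls under every alternative for LEC, and 0 for CA1 and CA3 except when 1 library of those regions was left out (0 to 28 and 0 to 2011). The block within region changed no call of a region difference. With 3 libraries a group, an exact test of 1 gene cannot go below p = 0.1, and genes as scarce as Egr2 rest on a few CPM.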
